A study of Rattus norvegicus with 30 samples.

Results

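The jejunum was compared 1 h after a single intraperitoneal dose of irinotecan with the jejunum of rats killed at 0 h. The 1 h group had received irinotecan at 200 mg/kg under light halothane anaesthesia, and the 0 h group had received no irinotecan. Both groups were female DA rats aged 10 weeks with no transgene or deletion, and 4 arrays of 30 in the series belong to the comparison. They were chosen by tissue and time in the sample titles, 2 arrays at 1 h and 2 at 0 h. Each array carried RNA pooled from 3 rats, so each time stands for 6 rats, and the p-values below measure the spread between such pools, not between single rats. The other arrays are jejunum at 6, 24 and 72 h and the stomach and colon at all 5 times. Sections of the whole jejunal wall were used, so epithelium, lamina propria, lymphoid tissue and muscle were measured together. The sources used here do not say whether the 0 h rats had an injection or the anaesthetic, or at what time of day each group was killed, so the drug, its injection and the anaesthetic cannot be told apart in these values.

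Irinotecan is a prodrug that carboxylesterases convert to an active metabolite. That metabolite holds topoisomerase I on DNA after the enzyme has cut a strand, which blocks transcribing polymerases and breaks the DNA when a replication fork arrives. The small intestinal crypt, with its fast-dividing progenitors, is a known site of its toxicity, and p53 target genes, apoptosis and arrest of the cell cycle follow in the hours after dosing. An injection or an anaesthetic can also raise blood glucocorticoids, whose receptor switches on a known set of genes within the hour. Immediate early genes, the first transcripts made after many kinds of stimulus, need no new protein synthesis and reach their peak early.

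The values are log2 signals, on which a difference of 1 is a 2-fold change, and every change below is the mean of the 1 h arrays minus the mean of the 0 h arrays. The 4 arrays carried the transcripts of small intestine. Apoa4, an apolipoprotein made by enterocytes, had a log2 signal of 13.69 to 13.90, and the intestinal alkaline phosphatase Alpi had 12.71 to 13.04. The gastric proton pump subunit Atp4a had 6.91 to 7.12 and the colonic carbonic anhydrase Car1 had 6.34 to 6.58. The other colon markers listed were higher than Car1, with Aqp8 at 7.40 to 7.68 and Slc26a3 at 9.27 to 9.78. The 3′ minus 5′ log2 signal of the GAPDH control probes, a measure of RNA integrity, was 0.027 and 0.23 at 1 h, against 0.16 and 0.15 at 0 h. Over 31042 probe sets the replicates correlated at 0.992 at 1 h and 0.995 at 0 h, and arrays of different groups correlated at 0.990 to 0.993. The median change over all probe sets was -0.0029, and over the brightest probe set of each of 14217 genes it was -0.0014.

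At 1 h few probe sets passed the test in the main fit, and all of those were higher. limma was run on all 31042 probe sets, and an adjusted p (Benjamini-Hochberg) under 0.05 was taken as passing. It called 11 probe sets higher (0.0354%) and 0 lower, while at an unadjusted p under 0.05 it had 878 higher (2.83%) and 589 lower (1.9%). The 8 named genes that rose were Ccl20, Ddit4, Gem, Klf2, Txnip, Arrdc3, N4bp2l1 and LOC100912041, and 3 more probe sets carry no gene symbol. Their log2 changes ran from 0.69 to 1.93, or 1.61-fold to 3.80-fold, and the 1 h and 0 h arrays did not overlap in any of the 11. Non-overlap alone is common with 2 arrays against 2, where 5706 probe sets (18.4%) lay apart with 1 h higher and 5576 (18%) with 1 h lower. The calls lie close to the threshold, with adjusted p from 0.0446 to 0.0463, and the next probe set, of Fkbp5, had 0.0506. Each of the 4 arrays bore on the count. It was 17 when 1 h replicate 1 was left out and 2 when 1 h replicate 2 was, with 1 of the 11 kept each time, and 0 when either 0 h array was left out. With both 24 h arrays out of the spread it was 66, of which 58 were higher and 8 lower, and these held all 11.

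**Figure D1:**
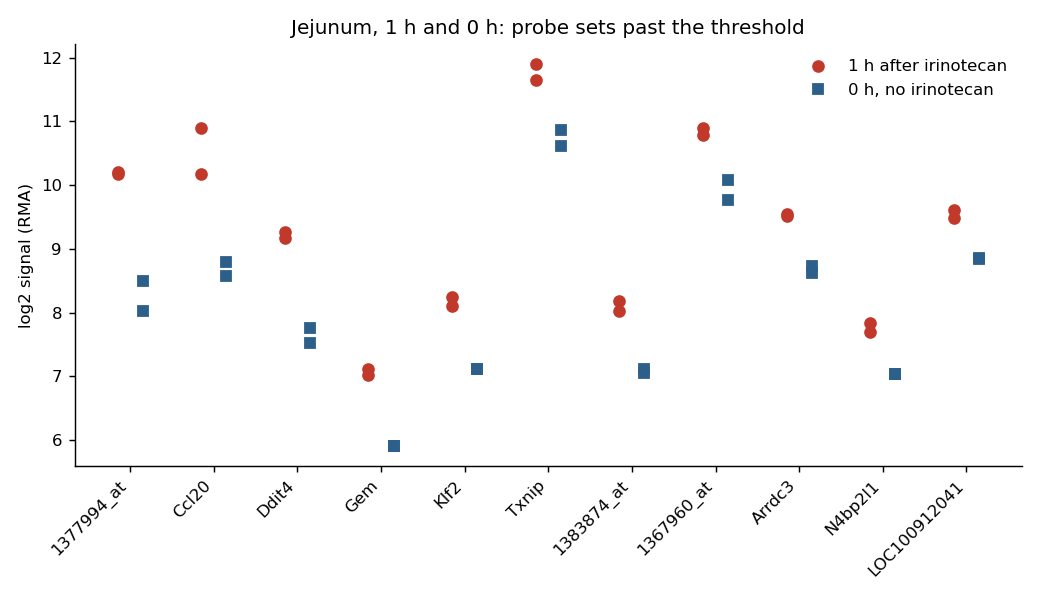
The log2 signal of each array is plotted for the 11 probe sets past the threshold, ordered by change, with 1 h as red circles left of 0 h as blue squares (2 arrays each). In all 11 both 1 h arrays lie above both 0 h arrays, by the most in the unnamed probe set 1377994_at (1.93) and by the least in LOC100912041 (0.69), and the 1 h arrays of Ccl20 are the farthest apart.

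Ccl20 rose the most of the named genes. It encodes the chemokine that draws lymphocytes and dendritic cells bearing the receptor CCR6, and the epithelium over lymphoid follicles is its best known source in the gut. Its log2 signal was 10.89 and 10.17 at 1 h, against 8.57 and 8.80 at 0 h. Both 1 h pools stood more than 1 log2 unit above both 0 h pools, but they differed from each other more than the 0 h pools did, with replicate 1 the higher. The mean was 10.53 ± 0.51 at 1 h and 8.69 ± 0.16 at 0 h (SD, n = 2 each), a log2 change of 1.84 with a standard error of 0.22 and a 95% interval of 1.35 to 2.33 (limma, adjusted p = 0.0446). The receptor gene Ccr6 had 6.96 and 6.83 at 1 h, against 6.79 and 6.81 at 0 h, a change of 0.10 that did not pass.

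Ddit4 encodes an inhibitor of the growth-promoting kinase complex mTORC1 and is known to be induced by glucocorticoids, DNA damage and low oxygen. Its log2 signal was 9.27 and 9.17 at 1 h, against 7.51 and 7.75 at 0 h. The pools of each time lay close together and the groups were far apart. Its change was 1.59 ± 0.17 (SE), 3.01-fold, with an interval of 1.21 to 1.97 (limma, adjusted p = 0.0446). None of the other 27 genes on the list of mTORC1 regulators rose, and at an unadjusted p under 0.05 there were 3 higher, Ddit4 included, and 0 lower. Over all 14217 genes 3.41% lay higher and 1.8% lower at that p. The other 2 were Flcn (0.38) and Sesn1 (0.20), while Tsc2, Rptor and Mtor differed by -0.02, -0.01 and -0.05.

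The promoters of Ccl20 and Ddit4 are printed because these are the most changed of the called genes that the RefSeq promoter table holds. Each runs from 250 bases before to 50 after the gene's start, on the rat build GRCr8, 5′ to 3′ along the gene. Ccl20 is at chr9:91836909-91837208 on the plus strand and Ddit4 at chr20:28436988-28437287 on the minus strand. Capitals mark matches to the motifs searched.
Ccl20 promoter: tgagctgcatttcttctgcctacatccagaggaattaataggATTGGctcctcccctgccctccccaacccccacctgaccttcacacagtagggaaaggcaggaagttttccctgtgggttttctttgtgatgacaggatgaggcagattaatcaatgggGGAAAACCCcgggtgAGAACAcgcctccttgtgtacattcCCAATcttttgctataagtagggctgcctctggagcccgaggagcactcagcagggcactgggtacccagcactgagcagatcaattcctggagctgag
Ddit4 promoter: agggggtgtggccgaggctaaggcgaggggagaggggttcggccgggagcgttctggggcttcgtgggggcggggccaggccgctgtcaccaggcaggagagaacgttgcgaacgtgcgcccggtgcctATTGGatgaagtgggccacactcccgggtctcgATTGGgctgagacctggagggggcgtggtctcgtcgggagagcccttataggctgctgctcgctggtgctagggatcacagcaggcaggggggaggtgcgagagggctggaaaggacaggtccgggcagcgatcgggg
In Ccl20 the capitals are GGAAAACCC, 89 bases before the start, which matches the NF-kB motif GGNNTTTCC on the opposite strand. The others are AGAACA, 6 letters of the glucocorticoid element, 74 bases before the start, and CCAAT boxes 208 and 49 bases before it. In Ddit4 they are CCAAT boxes, both on the opposite strand, 121 and 88 bases before the start.

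The search covered both strands of 33469 rat promoters of the same length and of the 5 called genes in the table, which are Ddit4, Arrdc3, LOC100912041, Ccl20 and N4bp2l1. Klf2, Gem and Txnip were not searched. GGNNTTTCC stood in 6.05% of all promoters and in 1 of the 5, which is Ccl20. AGAACA stood in 20.7% of all promoters and in 2 of the 5, Ccl20 and LOC100912041, but not in the window of Ddit4. CCAAT stood in 37.5% of all promoters and in 4 of the 5, TATAAA in 14.2% and in 1, and the short cAMP element TGACG in 21.2% and in 1. The full cAMP element TGACGTCA (1.83% of all), the FoxO motif GTAAACA (3.78%) and the E-box CACGTG (6.42%) stood in 0 of the 5. Every TGACGTCA also holds TGACG. A match describes these letters in this window and no binding was measured.

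Txnip and Arrdc3 both encode alpha-arrestins, adaptor proteins at membranes. Txnip binds thioredoxin and limits glucose uptake, and its transcription follows glucose through the factors MondoA and ChREBP. Its log2 signal was 11.64 and 11.91 at 1 h, against 10.87 and 10.61 at 0 h, a change of 1.04 ± 0.12 (limma, adjusted p = 0.0446). Arrdc3, which brings ubiquitin ligases to cell-surface receptors, had 9.51 and 9.55 at 1 h, against 8.73 and 8.62 at 0 h, a change of 0.86 ± 0.10 (limma, adjusted p = 0.0446). For both genes the 2 times were well apart and the pools of a time agreed within 0.3 log2 units. The other probe set of Arrdc3 differed by 0.49 and did not pass. Of the 16 measured genes on the list of alpha-arrestins and glucose-sensing genes these 2 rose, and Arrdc4 (0.75) and Klf10 (0.40) lay higher at an unadjusted p under 0.05. Over all 14217 genes 0.0563% rose and 3.41% lay higher at that p. The list median was 0.12, and the factors Mlxipl and Mlxip differed by 0.06 and 0.04.

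Klf2 encodes a zinc-finger factor known from endothelium and resting lymphocytes. Its log2 signal was 8.11 and 8.24 at 1 h, against 7.12 and 7.11 at 0 h, a change of 1.06 ± 0.11 (limma, adjusted p = 0.0446). This value comes from 1 of its 5 probe sets. Another, 1386041_a_at, differed by 0.57 with arrays that did not overlap, and the other 3 differed by -0.099, 0.09 and 0.01. Among 14 measured KLF factors Klf2 alone rose, and 6, Klf2 included, lay higher at an unadjusted p under 0.05 with 0 lower (3.41% and 1.8% over all genes). The other 5 were Klf9 (0.84), Klf11 (0.40), Klf10 (0.40), Klf6 (0.38) and Klf13 (0.24), while Klf4 and Klf5, the factors of gut epithelium, differed by 0.01 and 0.12.

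Gem encodes a small GTPase of the RGK family that holds down voltage-gated calcium channels. It had 7.02 and 7.11 at 1 h, against 5.90 and 5.91 at 0 h, a change of 1.16 ± 0.14 (limma, adjusted p = 0.0446). Both groups were tight, and the pools of a time lay far closer to each other than to those of the other time. N4bp2l1, a gene on the FoxO list with no settled function, had 7.70 and 7.84 at 1 h, against 7.03 and 7.03 at 0 h, a change of 0.74 ± 0.09 (limma, adjusted p = 0.0463). LOC100912041, which the gene table gives as a long noncoding RNA, had 9.48 and 9.61 at 1 h, against 8.86 and 8.84 at 0 h, a change of 0.69 ± 0.08 (limma, adjusted p = 0.0446). Of the 3 unnamed probe sets, 1377994_at had a mean of 10.19 at 1 h, against 8.26 at 0 h, the largest change of the 11 (1.93). The other 2, 1383874_at and 1367960_at, changed by 1.02 and 0.92.

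A further 12 genes came closest to the threshold from the outside among those with higher, non-overlapping arrays. They are given as values, since none passed in this fit. Fkbp5, the co-chaperone that the glucocorticoid receptor itself induces, had 8.48 and 8.87 at 1 h, against 7.37 and 7.49 at 0 h (1.24 ± 0.15, limma adjusted p = 0.0506), and its other probe set differed by 0.54. Tnfaip3, the deubiquitinase that ends NF-kB signalling, had 8.14 and 7.89 at 1 h, against 7.11 and 6.91 at 0 h (1.00). Gadd45b, a stress sensor upstream of p38 and JNK, had a mean of 8.01 at 1 h, against 7.21 at 0 h (0.80). In all 3 genes the pools of 1 h lay clearly above those of 0 h. Plk2, a polo-like kinase and p53 target, had 7.96 and 7.89 at 1 h, against 6.77 and 6.75 at 0 h (1.16 ± 0.17, limma adjusted p = 0.107). Dusp6, the phosphatase that switches off ERK, differed by 0.94, 1.24 and 1.11 on its 3 probe sets. Adamts1, a secreted metalloprotease, differed by 1.22, the receptor gene P2ry10 by 1.02, and LOC102549726 by 0.79. The last 4 were the follicle chemokine Cxcl13 (1.84), the butyrophilin-like gene Btnl5 (0.71), the inhibitor of apoptosis Birc3 (0.64) and Syncrip-ps2 (0.52). With both 24 h arrays left out of the spread, all 12 of these passed, with adjusted p from 0.00133 to 0.0344 (limma).

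The 12 lower genes closest to the threshold differed by -1.23 to -0.34, and none passed. Dbp, a clock-controlled factor, had 7.13 and 7.92 at 1 h, against 8.71 and 8.82 at 0 h, a difference of -1.23 ± 0.21 (limma, adjusted p = 0.229). Its 1 h pools were 0.79 apart, and both were below the 0 h pools. It stayed below the same 0 h arrays later, at -1.03 at 6 h, -1.78 at 24 h and -1.81 at 72 h. At 1 h it differed by -0.30 in the stomach and -0.65 in the colon. Atp8b1, a phospholipid flippase of apical membranes, had 9.52 and 9.55 at 1 h, against 10.30 and 10.58 at 0 h (-0.90), but its other probe set differed by -0.22. Slc16a3, a lactate carrier, and the death receptor gene Tnfrsf21 each differed by -0.61. Brush border and cortex genes were among the rest, with the metalloprotease Mme at -0.55 and the scaffold Pdzk1 at -0.45. The actin regulator Eps8 differed by -0.43, but by -0.14 and -0.13 on its other probe sets. Hopx, a marker of reserve stem cells, differed by -0.45, Lpgat1 and Lpar6 by -0.43 each, Rapgef2 by -0.38 and Sh3bp4 by -0.34 (-0.11 on its brighter probe set). Without both 24 h arrays only Atp8b1 and Dbp of these 12 passed.

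Genes were next followed by lists, each gene by its brightest probe set, beside the same counts over all 14217 genes. Over all genes 8 rose (0.0563%) and 0 fell, 485 lay higher (3.41%) and 256 lower (1.8%) at an unadjusted p under 0.05, and the arrays lay apart with 1 h higher in 2768 (19.5%) and lower in 2444 (17.2%).

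Glucocorticoid-induced genes had the highest median change of the lists plotted. Of 25 measured, 1 rose (Ddit4), 14 lay higher and 1 lower at an unadjusted p under 0.05, and the arrays lay apart in 16 with 1 h higher and 1 lower. The list median change was 0.52, and the median log2 signal of its members was 8.47 and 8.54 at 1 h, against 7.77 and 7.76 at 0 h. After Ddit4 and Fkbp5 the highest values were those of Pdk4, the kinase that shuts pyruvate out of oxidation (1.19), and the factor Cebpd (1.01). Next came the NF-kB inhibitor Nfkbia (0.99), the ion transport kinase Sgk1 (0.98), Errfi1 and Klf9 (0.84 each), Gadd45b (0.80) and Tsc22d3, the leucine zipper protein GILZ (0.76). Sgk1 had 12.59 and 12.57 at 1 h, against 11.51 and 11.69 at 0 h, and Tsc22d3 had 9.74 and 9.95 at 1 h, against 9.08 and 9.10 at 0 h. Not every member was higher, since the metallothionein genes Mt1 and Mt2A differed by 0.18 and -0.01, Tat by -0.01 and Angptl4 by -0.45. Without both 24 h arrays 8 of the 25 rose, namely Ddit4, Fkbp5, Pdk4, Cebpd, Sgk1, Klf9, Gadd45b and Tsc22d3, where 40 of all 14217 genes rose (0.281%) and 2 fell (0.0141%). The list median was 0.54 in the stomach and 0.32 in the colon at 1 h.

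**Figure D2:**
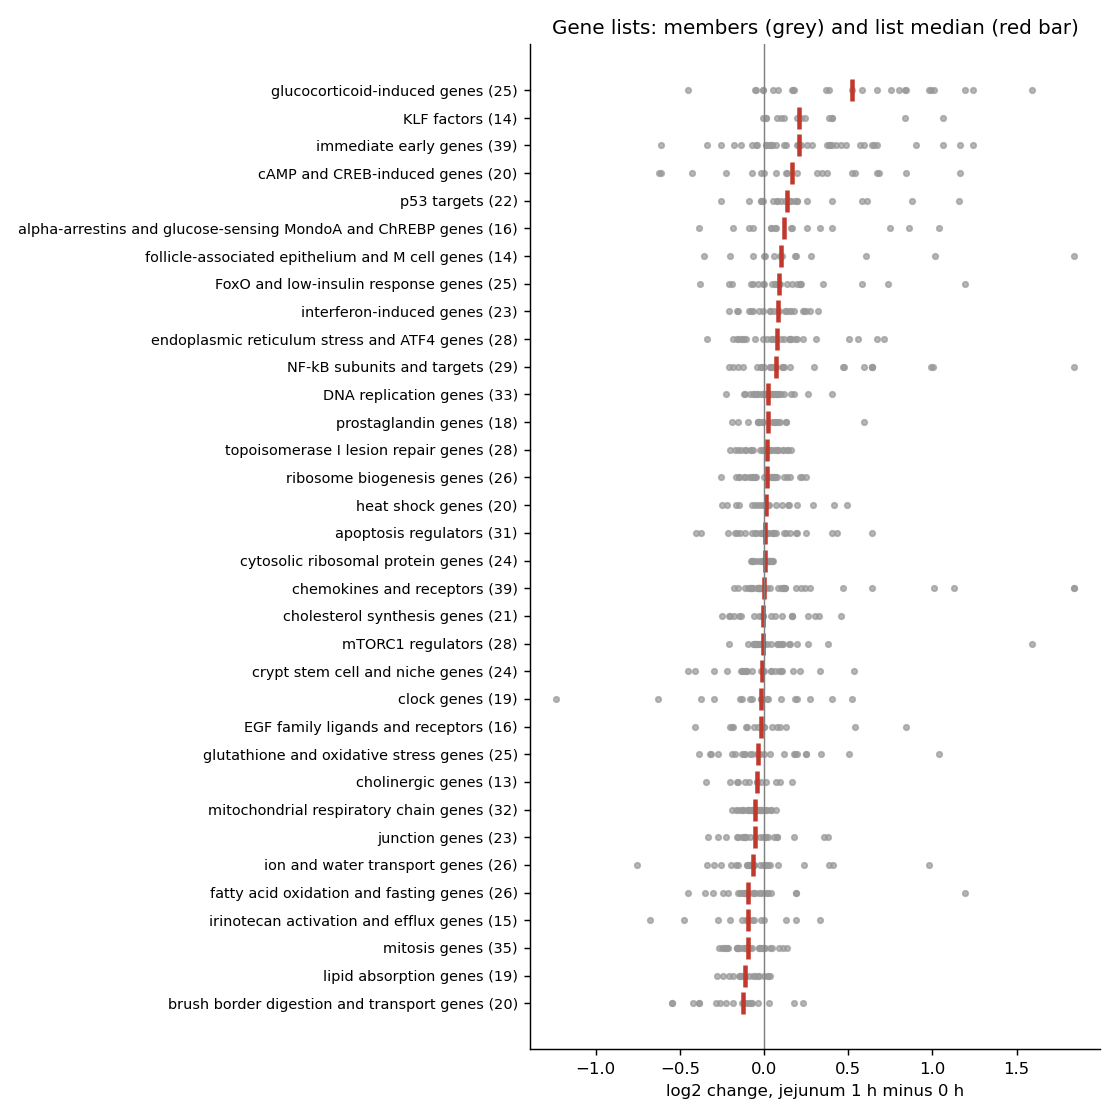
Grey points are the log2 changes (1 h minus 0 h) of the measured members of each list and the red bar is the list median, with the number measured in brackets and lists sorted by median. The glucocorticoid-induced list has the highest median (0.52) and the brush border list the lowest (-0.12), and most other list medians lie near 0.

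Immediate early genes differed widely from one another. Of 39 measured 2 rose (Klf2 and Gem), 16 lay higher and 1 lower at an unadjusted p under 0.05, and the list median was 0.21. The arrays lay apart in 22 with 1 h higher and in 3 with 1 h lower. Egr1, a zinc-finger factor of the growth factor response, had 9.26 and 9.36 at 1 h, against 8.14 and 8.67 at 0 h (0.90). Dusp1 (0.67), Rhob (0.66), Ier3 (0.64), Ptgs2 (0.60) and Ier2 (0.57) also lay higher with arrays apart. Fos, the best known member, had 9.82 and 10.11 at 1 h, against 9.68 and 10.61 at 0 h, so its groups overlapped and its 0 h pools stood further apart than its 1 h pools. Junb (0.04), Myc (-0.26) and Atf3 (-0.34) did not pass either, and Fosb differed by -0.61. The median log2 signal over the list was 8.25 and 8.40 at 1 h, against 8.14 and 8.51 at 0 h, so the groups overlapped in that measure. On the list of 20 cAMP and CREB-induced genes Gem rose, and 7 lay higher and 3 lower at an unadjusted p under 0.05, among them Crem (0.84), Rgs2 (0.68) and, lower, Pck1 (-0.62).

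Targets of p53 were measured for the DNA damage response. Of 22 measured 0 rose and 0 fell (limma), 8 lay higher and 1 lower at an unadjusted p under 0.05, and the list median was 0.14. The arrays lay apart in 15 with 1 h higher and in 1 with 1 h lower. Gadd45a, which halts the cycle and aids repair, had 10.49 and 10.55 at 1 h, against 9.58 and 9.70 at 0 h (0.88). The cyclin-dependent kinase inhibitor Cdkn1a had 9.45 and 9.67 at 1 h, against 8.89 and 9.07 at 0 h (0.58), and Ccng1 had 9.07 and 9.26 at 1 h, against 8.61 and 8.49 at 0 h (0.61). In these 3 genes and in Plk2 both 1 h pools lay above both 0 h pools, and these 4 rose when both 24 h arrays were left out. Bbc3, the apoptosis inducer PUMA, differed by 0.40 and Mdm2, which targets p53 for destruction, by 0.19. Fas and Perp differed by -0.01 and -0.09. At 6 h, against the same 0 h arrays, Ccng1 stood at 1.57, Cdkn1a at 0.91 and Mdm2 at 0.46, while Gadd45a was at 0.04.

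The drug's target and the genes that handle it showed no call. Of 28 measured genes for the repair of topoisomerase I lesions 0 rose or fell (limma), 0 lay beyond an unadjusted p of 0.05 in either direction, and the median was 0.02. Top1 itself had 9.66 and 9.92 at 1 h, against 10.04 and 9.95 at 0 h (-0.20). Of 15 measured genes for irinotecan activation and efflux 0 rose or fell, with 1 higher and 2 lower at an unadjusted p under 0.05. The efflux pump genes Abcc2 and Abcb1a were those lower, with Abcc2 at 8.28 and 7.96 at 1 h, against 8.84 and 8.75 at 0 h (-0.68), and Abcb1a at -0.48, while Abcg2 differed by -0.07. The carboxylesterase genes Ces2c and Ces1d differed by 0.13 and 0.33 and overlapped or nearly touched between the times.

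Cell cycle genes had hardly moved. Of 35 mitosis genes 0 rose or fell and 0 lay beyond an unadjusted p of 0.05 (limma), with a median of -0.10, and 11 had lower, non-overlapping arrays against 1 higher. Ccnb1 had a mean of 8.49 at 1 h, against 8.76 at 0 h, and its arrays overlapped. At 6 h the median of this list was -0.67. Among 33 DNA replication genes 0 rose or fell, 1 lay higher (Cdt1, 0.40) and 1 lower (Pola1, -0.22) at an unadjusted p under 0.05, and the median was 0.02. For 31 apoptosis regulators 0 rose or fell, and 4 lay higher and 2 lower at an unadjusted p under 0.05, with Bcl2l11 at 0.43 and Xiap at -0.40.

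NF-kB subunits and targets showed a few members far above the rest. Ccl20 alone rose among 29 measured, 8 lay higher and 0 lower at an unadjusted p under 0.05, and the median was 0.07, with arrays apart in 13 with 1 h higher and in 2 with 1 h lower. The feedback inhibitors Tnfaip3 (1.00) and Nfkbia (0.99) and the neutrophil chemokine Cxcl1 (0.64) stood highest after Ccl20. Cxcl1 had 6.76 and 6.97 at 1 h, against 6.28 and 6.17 at 0 h. The cytokine genes Tnf and Il6 each differed by 0.07, Il1b by -0.12, and the subunits Rela and Nfkb1 by 0.07 and -0.15. Of 39 chemokine and receptor genes Ccl20 alone rose, and 6 lay higher and 0 lower at an unadjusted p under 0.05, with a list median of -0.0024. Interferon-induced genes (23 measured) had 0 that rose or fell by limma and 2 higher and 0 lower at an unadjusted p under 0.05.

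Clock genes were listed because the hour of killing is not stated. Of 19 measured 0 rose or fell (limma), and Per1 (0.52) and Bhlhe40 (0.40) lay higher and Per2 (-0.63) and Dbp lower at an unadjusted p under 0.05. Per1, which glucocorticoids also induce, had 8.88 and 8.90 at 1 h, against 8.33 and 8.41 at 0 h. Per2 had 7.83 and 8.03 at 1 h, against 8.84 and 8.27 at 0 h. The other clock genes differed less, with Bmal1 at 0.27, Nr1d1 at -0.01 and Nr1d2 at -0.02. Their part in the other results was not tested.

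Genes of the absorptive surface lay slightly lower without a call. Of 20 brush border genes 0 rose or fell (limma), 4 lay lower and 0 higher at an unadjusted p under 0.05, and 10 had lower arrays apart against 1 higher. Those 4 were Mme, the trehalase Treh (-0.42), the peptidase Ace (-0.39) and ezrin, Ezr (-0.28). The glucose carrier Slc5a1 had 9.24 and 9.66 at 1 h, against a mean of 10.00 at 0 h (-0.55). Among 19 lipid absorption genes 0 rose or fell and 0 lay beyond an unadjusted p of 0.05, with a median of -0.11 and 7 with lower arrays apart against 0 higher. Among 26 ion and water transport genes 0 rose or fell, and 3 lay higher (Sgk1, the sodium-proton exchanger Slc9a3 at 0.41 and Slc26a3 at 0.38) and 2 lower (the aquaporin Aqp3 at -0.76 and the guanylin receptor Gucy2c at -0.26) at an unadjusted p under 0.05. Aqp3 had 7.24 and 7.22 at 1 h, against 7.79 and 8.18 at 0 h. Of 13 cholinergic genes, listed because irinotecan also inhibits acetylcholinesterase, 0 rose or fell and only the muscarinic receptor gene Chrm3 (-0.35) lay beyond an unadjusted p of 0.05.

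Stress of the endoplasmic reticulum was followed through its sensors, factors and chaperones. Of 28 measured genes 0 rose or fell (limma), and 5 lay higher and 0 lower at an unadjusted p under 0.05, namely Ddit3 (0.71), Herpud1 (0.67), Atf4 (0.56), Chac1 (0.50) and Ppp1r15a (0.31). Atf4 had 11.31 and 11.51 at 1 h, against 10.84 and 10.86 at 0 h. The chaperones Hspa5, Pdia4 and Calr differed by -0.16, -0.19 and -0.16. Heat shock genes (20 measured) had 0 that rose or fell and 2 higher, Dnajb1 (0.49) and Hspb1 (0.42). On the FoxO list (25 measured) N4bp2l1 rose and 6 lay higher and 1 lower at an unadjusted p under 0.05. Fasting genes (26) had 0 that rose or fell, with Pdk4 higher and Angptl4 lower at an unadjusted p under 0.05. Ribosomal protein genes (24 measured) stayed between -0.08 and 0.05. The lists for ribosome biogenesis, histones, cholesterol synthesis, oxidative stress, junctions, crypt stem cells, EGF family, prostaglandins and the respiratory chain had medians between -0.05 and 0.05, and Txnip, on the oxidative stress list, was their only member that rose.

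B cell and lymphoid follicle genes differed between the 2 pools taken at 1 h, and so did markers of some other cell types. With replicate 1 the higher, the macrophage list had a median signal of 7.56 and 7.01 at 1 h and the goblet list 12.34 and 11.81. The mast cell gene Mcpt1 had 10.29 and 8.28 at 1 h. The T cell list lay closer, at 7.00 and 6.96. In a bulk sample more cells of a type and more RNA per cell cannot be told apart. Of 10 measured B cell markers 0 rose or fell (limma), 5 lay higher and 0 lower at an unadjusted p under 0.05, and the median signal of the list was 6.85 and 7.28 at 1 h, against 6.66 and 6.72 at 0 h. Ms4a1, which encodes the B cell surface protein CD20, had 6.89 and 8.04 at 1 h, against 6.17 and 6.20 at 0 h. The follicle chemokine gene Cxcl13 had 8.41 and 9.54 at 1 h, against 7.33 and 6.93 at 0 h. In both genes 1 h replicate 2 was the highest of the 10 jejunum arrays and 1 h replicate 1 came next. Cxcr4, the receptor that places B cells in germinal centres, had 7.56 and 8.26 at 1 h, against 6.95 and 6.61 at 0 h, and P2ry10 had 6.26 and 6.68 at 1 h, against 5.53 and 5.38 at 0 h. Ccl21, made in the T cell zone, had 7.99 and 8.70 at 1 h, against 7.21 and 7.46 at 0 h. Other B cell genes did not follow, since Cxcr5, Blk and Fcrla differed by -0.02, -0.06 and -0.13.

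**Figure D3:**
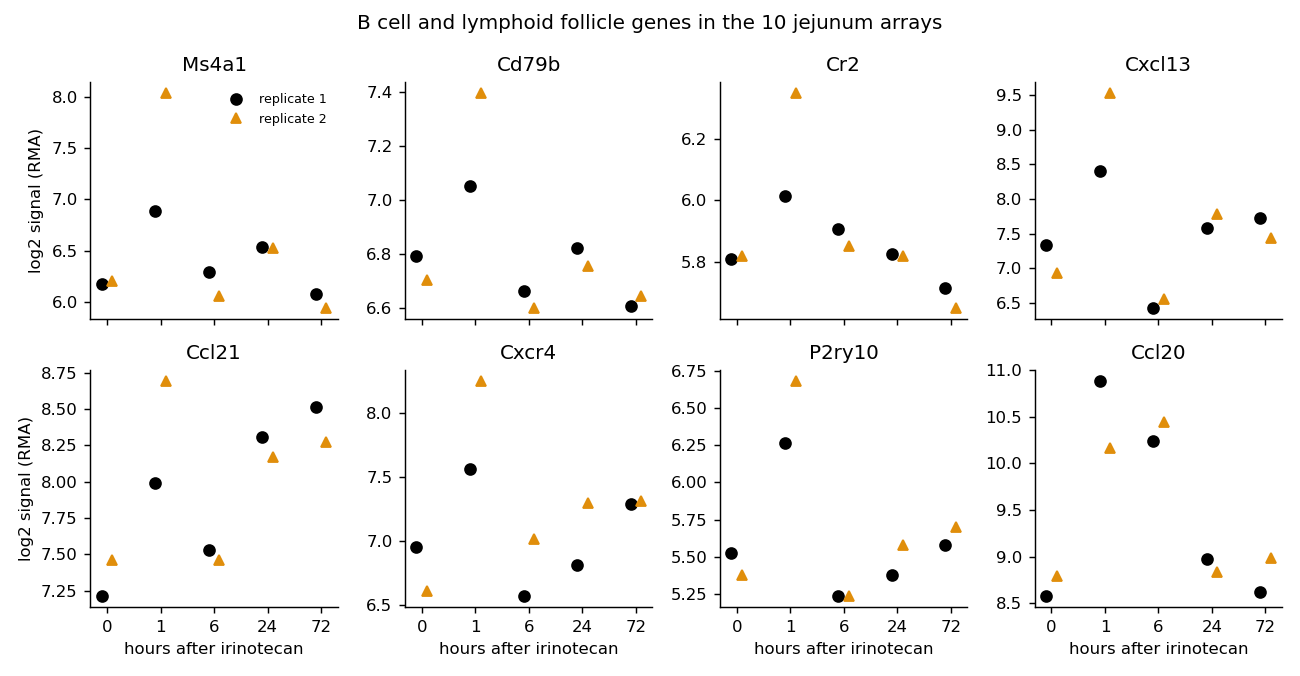
The log2 signals of B cell and follicle genes and of Ccl20 are plotted over time for the 10 jejunum arrays, replicate 1 as black circles and replicate 2 as orange triangles, with the 5 times spaced evenly. At 1 h replicate 2 lies above replicate 1 for Ms4a1, Cd79b, Cr2, Cxcl13, Ccl21, Cxcr4 and P2ry10, and below it for Ccl20.

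Ccl20 ran the other way, with 1 h replicate 1 above replicate 2 by 0.72 log2 units, while Ms4a1 and Cxcl13 were higher in replicate 2 by 1.15 and 1.13. On the list of 14 genes of the follicle-associated epithelium and M cells, Ccl20 rose, and Clu (1.02) and Ccl9 (0.60) lay higher and the M cell receptor Gp2 (-0.36) lower at an unadjusted p under 0.05. Markers of T cells, macrophages and endothelium had medians of 0.09, 0.00 and 0.06, and those of smooth muscle 0.24 with all 7 between 0.06 and 0.36. The smooth muscle list had a median signal of 11.41 and 11.77 at 1 h, against 11.17 and 11.33 at 0 h. None of these marker genes passed, and at an unadjusted p under 0.05 the T cell, macrophage, endothelial and muscle lists had 0 higher and 0 lower. The goblet, Paneth, enteroendocrine, plasma cell, mast cell, neuron and glia, acinar and red cell markers also had 0 higher and 0 lower at that p, with list medians from -0.17 to 0.26. How far the amount of follicle or muscle in a section bears on the named genes was not tested.

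The stomach and colon of the same rats were taken at the same times, and the size of the response was compared between tissues. In limma's test of the difference in response 0 probe sets passed for jejunum minus stomach, with 1262 at an unadjusted p under 0.05 (4.07%), and 0 for jejunum minus colon, with 3284 (10.6%). The change of Ddit4 was 1.59 ± 0.17 in the jejunum, with values of 2.11 ± 0.25 in the stomach and 1.16 ± 0.19 in the colon. That of Gem was 1.16 ± 0.14 in the jejunum, with 1.46 ± 0.32 in the stomach and 1.25 ± 0.16 in the colon. For both genes the 1 h arrays lay above the 0 h arrays in all 3 tissues. Klf2 had 1.06 in the jejunum, 1.24 in the stomach and 0.51 in the colon, and Txnip 1.04, 0.83 and 0.21 in the same order. Neither stomach nor colon passed for any of these 4 genes.

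Ccl20 and N4bp2l1 had values near 0 outside the jejunum. Ccl20 differed by 0.19 ± 0.33 in the stomach and 0.21 ± 0.28 in the colon, where its log2 signal was 9.87 and 9.06 at 1 h, against 8.85 and 9.66 at 0 h. The difference in its response was 1.65 ± 0.46 for jejunum minus stomach (limma, adjusted p = 0.718) and 1.63 ± 0.46 for jejunum minus colon (limma, adjusted p = 0.362). N4bp2l1 differed by -0.12 in the stomach and -0.02 in the colon, and Arrdc3 by 0.47 and -0.02. LOC100912041 differed by 0.05 in the stomach and -0.28 in the colon, where it had 9.03 and 9.30 at 1 h, against 9.33 and 9.55 at 0 h, so that both 1 h arrays were the lower there. No difference between tissues passed for any of these genes, and the 3 tissues of a time share rats, which this test does not use.

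**Figure D4:**
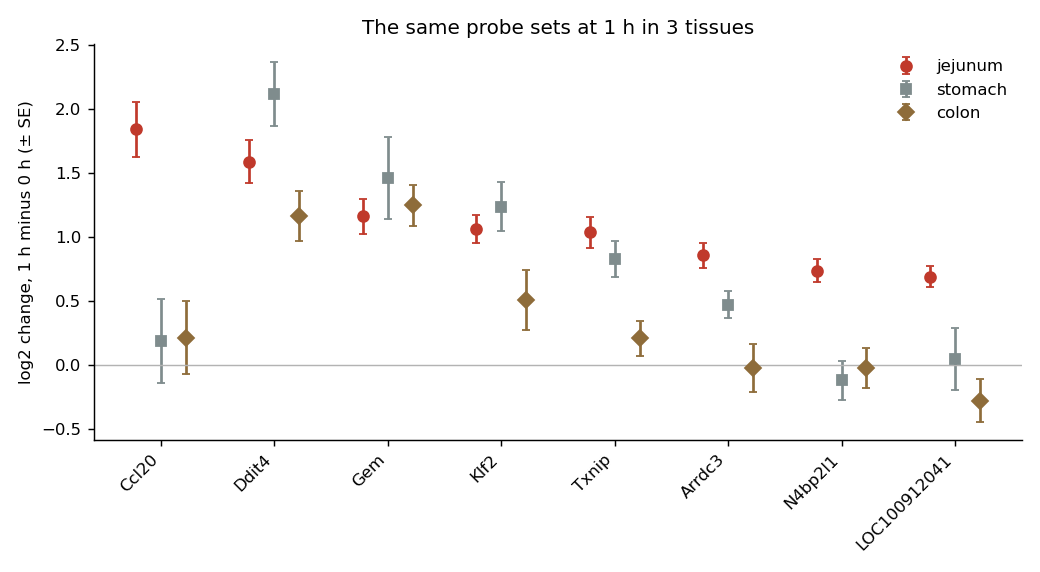
The log2 change at 1 h, with its standard error from limma, is plotted for the 8 named genes in jejunum (red), stomach (grey) and colon (brown), each from 2 arrays against 2. Ddit4, Gem and Klf2 are above 0 in all 3 tissues, while Ccl20 and N4bp2l1 lie near 0 in stomach and colon and LOC100912041 is below 0 in colon.

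The genes that rose at 1 h then took different courses. They were picked for high values in the 1 h arrays, and 6 h minus 1 h uses those arrays again. Part of a fall by 6 h may therefore come from that choice. Ddit4 was high at 1 h, low again at 6 h and higher once more at 72 h, at 7.51 and 7.75 at 0 h, 9.27 and 9.17 at 1 h, 7.56 and 8.07 at 6 h and 8.53 and 8.22 at 72 h. Its 6 h pools overlapped the range of the 0 h pools, and 6 h minus 1 h was -1.41 ± 0.17 (limma, adjusted p = 0.0088). Against the same 0 h arrays it stood at 0.35 at 24 h, which did not pass, and at 0.74 at 72 h (limma, adjusted p = 0.0156). Gem went on climbing, at 5.90 and 5.91 at 0 h, 7.02 and 7.11 at 1 h, 7.98 and 7.89 at 6 h, 6.73 and 6.87 at 24 h and 7.36 and 7.82 at 72 h, with 6 h minus 1 h at 0.87 ± 0.14 (limma, adjusted p = 0.0157). LOC100912041 and the unnamed 1367960_at were lower at 6 h than at 1 h, with differences of -0.39 and -0.54, and both passed.

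Ccl20 stayed up at 6 h and was back near its 0 h level by 24 h. It had 10.89 and 10.17 at 1 h, 10.24 and 10.44 at 6 h, 8.98 and 8.83 at 24 h and 8.62 and 8.98 at 72 h. Its 6 h minus 1 h difference of -0.19 did not pass, nor did those of Klf2 (-0.39), Txnip (-0.39), Arrdc3 (0.36) and N4bp2l1 (0.15). Against the same 0 h arrays, Arrdc3 stood at 1.22 at 6 h, 0.51 at 24 h and 1.01 at 72 h, and N4bp2l1 at 0.89, 0.16 and -0.26. Cxcl13 was lower at 6 h than at 1 h, with a difference of -2.48 (limma, adjusted p = 0.0088), and P2ry10 differed by -1.24. Both had likewise been named for high values in the 1 h arrays.

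**Figure D5:**
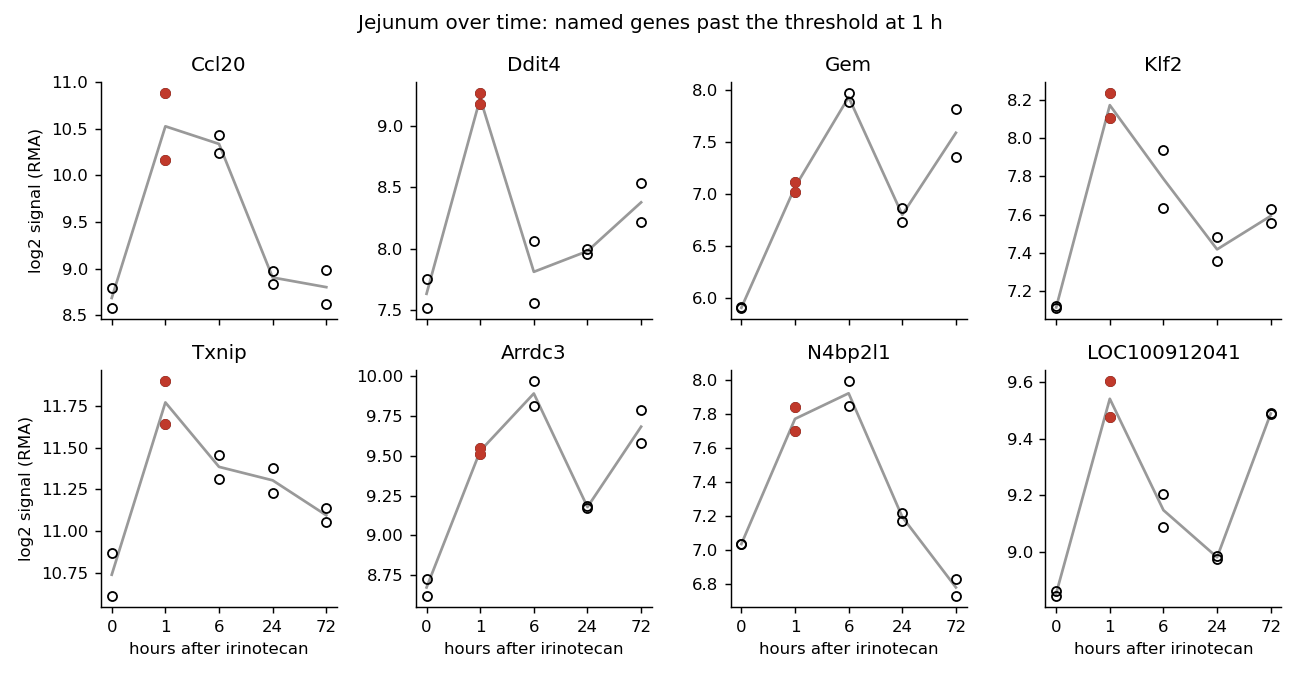
Each panel shows the log2 signal of a named gene in the 10 jejunum arrays, with times spaced evenly, 1 h filled in red and a line through the means. Ddit4, Klf2, Txnip and LOC100912041 peak at 1 h and are lower at 6 h, Gem, Arrdc3 and N4bp2l1 are highest at 6 h, and Ccl20 is high at both.

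Far more probe sets passed between 1 h and 6 h. limma called 887 probe sets (2.86%) for 6 h minus 1 h, 567 higher (1.83%) and 320 lower (1.03%). The 6 genes with the smallest p were the p53-regulated kinase gene Dyrk2 (1.18), the interferon-induced chemokine Cxcl11 (1.23), the mitotic phosphatase gene Cdkn3 (-1.31), the ethanolamine kinase Etnk1 (0.89), the integrin Itgb1 (0.95) and the mitochondrial carrier Slc25a24 (1.09). At 1 h none of these 6 had passed, with values from -0.11 to 0.27 against 0 h. Dyrk2 had 8.76 and 8.90 at 6 h, against 7.59 and 7.72 at 1 h, and Cdkn3 had 7.58 and 7.72 at 6 h, against a mean of 8.96 at 1 h. This count rested on each of the 4 arrays. Dropping a 1 h array gave 41 (replicate 1) or 78 (replicate 2), and dropping a 6 h array gave 2 (replicate 1) or 0 (replicate 2).

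Trapped topoisomerase I is known to hold back the transcription of long genes, so the changes were set out by the length of the gene in the genome. Of the 14217 genes 14167 had a length in the gene table (GRCr8). The median log2 change at 1 h was -0.0058 for genes under 3 kb, 0.0058 for 10 to 30 kb, -0.021 for 100 to 300 kb and -0.0080 for 300 kb or more. At 6 h, against the same 0 h arrays, it was -0.081 under 3 kb, -0.017 for 10 to 30 kb, 0.032 for 30 to 100 kb, -0.029 for 100 to 300 kb and -0.12 for 300 kb or more, which was the lowest of the 6 length classes. Spearman's rank correlation between length and change over these genes was -0.050 at 1 h and 0.094 at 6 h, although the 6 h medians did not climb steadily with length. Genes share arrays and differ in brightness with length, so these values describe the arrays and carry no test.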

How the data were processed

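Total RNA of jejunum, stomach and colon sections was hybridised to Affymetrix rat arrays, 1 array for each pool of 3 rats. The deposited values are log2 expression values that the authors made with RMA, per the submitters' processing notes, and its version and settings are not stated. RMA normalizes all arrays to one distribution, so a shift common to most transcripts would not show. The deposited values were used as they are, with a pseudocount of 0.

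The 57 array control probe sets were left out, which left 31042. Of these 20826 carry 1 gene symbol, 436 several and 9780 none, in GEO's platform annotation. Gene identifiers of 20758 probe sets matched the RefSeq gene table, which changed 0 symbols. In the gene lists a gene with several probe sets was followed by the brightest one over the jejunum arrays, whereas genes named for their p are given by the probe set with that p, which for Atp8b1, Dusp6 and Sh3bp4 is not the brightest.

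limma 3.58.1 in R 4.3.3 (lmFit and eBayes) fitted a mean for each time to the 10 jejunum arrays, and a mean for each tissue and time to all 30 arrays for differences between tissues. Tests were two-sided, with Benjamini-Hochberg adjustment and a threshold of 0.05. Scripts were tested on simulated data. Only 2 arrays a group limit the precision. Nothing says whether the pools of a time share a treatment day.

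The text names every gene past the threshold, the 12 higher and 12 lower genes next to it with arrays that do not overlap, up to 6 genes past the threshold in other comparisons, and members of 52 gene lists (1103 entries, 860 genes measured, 69 of them on more than 1 list). The result of 1 list is not reported here. The comparison, the genes and the lists were chosen with earlier results of these data known. Alternatives were a filter on dim probe sets, quantile normalization, other variance models, other samples in the fit, array weights, a replicate block and leaving out each array in turn. Figures were drawn with matplotlib 3.10.9 in Python 3.11.15.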

Additional observations from a re-analysis of the deposited data

Results flagged for a closer look

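For 4 of the 11 probe sets that rose at 1 h the level at 6 h differed from that at 1 h in limma's test. Of all probe sets 2.86% passed that test. The 11 had been picked for high values in the same 1 h arrays, so part of a fall by 6 h may come from that choice. Levels were lower at 6 h for Ddit4 (6 h minus 1 h of -1.41), LOC100912041 (-0.39) and the unnamed probe set 1367960_at (-0.54), and higher for Gem (0.87).

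In 6 cases the arrays of the jejunum lay apart in one direction at 1 h and those of another tissue in the opposite direction. None of these differences passed limma's test. Arrays that lie apart are common, since 18.4% of all probe sets in the jejunum did so with 1 h higher and 18% with 1 h lower. The share of all probe sets apart in opposite directions between tissues was not counted either. Whether 6 cases are more than such shares would give was therefore not tested. The jejunum response exceeded the colon response by 0.97 for LOC100912041 and 0.94 for Btnl5. It was below the stomach response for Pdzk1 (-0.64) and for Tnfrsf21 (-0.83), and below the colon response for Tnfrsf21 (-0.87) and Sh3bp4 (-0.43).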

How the results depend on the processing

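The 11 calls of 1 h minus 0 h became 8 after quantile normalization and 10 (1 of them lower) in 1 fit of all 30 arrays. They became 0 with dim probe sets dropped (784 at an unadjusted p under 0.05) and 4 with trend and robust variances. A fit of the 4 arrays alone gave 24 (4 lower), array weights gave 42 (3 lower), and leaving out both 24 h arrays gave 66 (8 lower). Leaving out 24 h replicate 1 alone must give that same result, since a single array left at 24 h adds no spread. It therefore cannot tell the 24 h arrays apart. The array of 24 h replicate 1 had the widest GAPDH 3′ minus 5′ gap (0.816), and its part in the count was not tested. The median standard error was 0.103 with the 24 h arrays and 0.0902 without them. Leaving out 1 array at a time gave 0 to 17. The replicate block gave 0 (1280 at an unadjusted p under 0.05), and nothing says whether the replicate numbers pair samples. The replicate 1 minus 2 differences correlated at 0.16 between jejunum 1 h and 0 h. Between other pairs of jejunum times they correlated at -0.58 to 0.37. Those of jejunum 1 h correlated at 0.39 with colon 1 h and at -0.03 with stomach 1 h. Such values cannot settle whether replicates of a number share a day or batch. For jejunum minus stomach the 0 calls became 2 with dim probe sets dropped, 1 after quantile normalization, 1 with 8 arrays only, 2 with the replicate block and 0 to 2 by leaving out 1 array, 2 being without 1 h replicate 2. For jejunum minus colon it was 0 under every alternative run. The 887 calls of 6 h minus 1 h were 475 with the replicate block, 599 to 888 under the other alternatives and 0 to 78 by leaving out 1 array. Of 1 h minus 0 h values for named genes under alternatives, 324 kept their direction and their side of the threshold, 86 lost and 56 gained the call, and 1 reversed, a second Klf2 probe set (-0.099). The 86 losses can only come from the 11 called probe sets and from other probe sets of their genes. Of 13 alternatives, each of the 11 passed in at least 3 (LOC100912041) and at most 7 (Ddit4 and 1383874_at). The cause of these shifts was not tested. Transcripts near the array's background have compressed changes, and no detection call was used.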

Other observations

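Some genes outside the lists and names above also stood apart at 1 h, and they are given here by value, chosen after their values were seen. Frat2, an activator of Wnt signalling, had a log2 signal of 9.64 and 10.28 at 1 h, against 8.79 and 8.98 at 0 h, a difference of 1.08 that did not pass (limma, adjusted p = 0.180). The immunoglobulin gene Ighvl1 had 7.41 and 8.93 at 1 h, against 6.61 and 6.84 at 0 h, with 1 h replicate 2 the higher, as for Ms4a1 and Cxcl13. The antimicrobial lectin gene Reg3g differed by 1.04 and the carbonic anhydrase gene Car3 by 1.32, with wide spreads. Cyp1a1, the enzyme that the aryl hydrocarbon receptor induces, had 8.64 and 9.53 at 1 h, against 10.83 and 9.69 at 0 h, a difference of -1.17 with a standard error of 0.73.

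With both 24 h arrays left out, the lymphocyte egress receptor gene S1pr1 (0.86), the mRNA decay factor Zfp36l2 (0.72), Ypel5 (0.65), Ip6k2 (0.62) and Snhg4 (0.63) also rose, and Rsrp1 (-0.84), Entpd5 (-0.61) and Fhip2a (-0.53) fell (limma). None of these passed with the 24 h arrays in the fit.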
